A study of Rattus norvegicus with 18 samples.

Results

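The quantity described here is the change, from 6 to 24 h of exposure, in what PCB126 did to each gene in WB-F344 cells: the difference between PCB126 and its vehicle at 24 h minus the same difference at 6 h. It was formed from 12 of the 18 arrays of the series, 3 arrays for each of 4 groups taken from the sample titles. These groups are 0.1% DMSO for 6 h, 100 nM PCB126 for 6 h, 0.1% DMSO for 24 h and 100 nM PCB126 for 24 h. The other 6 arrays are DMSO and PCB126 at 72 h. They lend their spread to the tests and give the later level of genes named from the earlier times.

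PCB126 (3,3′,4,4′,5-pentachlorobiphenyl) is a flat, dioxin-like polychlorinated biphenyl. It binds the aryl hydrocarbon receptor (AhR), a transcription factor held in the cytoplasm until a ligand arrives. The receptor then moves to the nucleus, pairs with ARNT and binds xenobiotic response elements, short DNA words with the core GCGTG. Its best known targets are enzymes that oxidise and conjugate foreign compounds, with Cyp1a1 the classical one, and feedback regulators such as Ahrr and Tiparp. Some targets answer directly within hours, while changes in other genes can follow through slower routes.

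WB-F344 is an epithelial line from rat liver with stem-like properties, and all groups were confluent cells at passages 14 to 16 in dishes. The samples are thus 1 line at 1 dose, and the labels call the 3 samples of a group independent repeats without saying whether these were separate thaws or passages. P-values therefore measure the spread between these samples. The marker lists read as follows on the 12 arrays. Of 12 cholangiocyte and progenitor markers, 9 averaged above the median probe set level of the arrays (4.03 on the log2 scale), among them Krt8 (8.09) and Sox9 (7.01), while Epcam (2.20), Cftr (2.44) and Prom1 (3.06) lay under it. Of 12 mesenchymal markers 11 lay above it, with the intermediate filament gene Vim at 12.6 and Lrat (3.83) under it. Of 13 hepatocyte markers 6 lay above it, from Cyp2e1 (9.87) and Hnf4a (5.17) down to Serpina1 (4.05), and 7 did not, among them Alb (3.49) and Afp (3.42). Of 12 blood and endothelial markers 8 lay above it, with Cd14 at 10.11 and Tek at 7.10, and 4 under it, including the leukocyte gene Ptprc (3.04). Most genes lie above this level: 13420 of all 16988 genes were kept when dim genes were left out. The marker counts therefore do not show a cell type.

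Values are log2 expression per gene and array, the median over the exon array's probe sets for that gene. A gene was called when limma's two-sided moderated test gave an adjusted p under 0.05 over all 16988 genes. Median gene values of the 18 arrays lay between 6.19 and 6.54, and the number of arrays limits the precision. The standard error of the change had a median of 0.259 over genes, and its 95% interval reached a median of 0.55 to either side. RMA, the method that made the values, compresses differences near the dim end, so differences from genes close to the median probe set level are likely to be understated.

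For 5 of 16988 genes (0.0294%) the change in effect was called. In all of these the effect of PCB126 was larger at 24 h than at 6 h: 2 genes moved up, Cyp1a1 and Mcm5 (0.0118% of genes), and 3 moved down, Lbp, Adora2a and Hpd (0.0177%). No gene was called in this fit with an effect that became smaller by 24 h, and none was called at both times with opposite signs. An unadjusted p under 0.05 was reached by 1185 genes in this limma fit (6.98%), 585 with a change above 0 and 600 below. Array quality weights, which let noisier arrays count less, gave 85 called genes (0.5%). Of these 79 had the larger difference at 24 h, 4 the smaller one, and 2 (E2f1 and Gnb5) were called at both times with opposite signs. The 4 were Hsd11b1, Kntc1, RGD1560648 and Slc9a4, whose estimated differences also had opposite signs at 6 and 24 h. Of these only Kntc1 was called at 24 h, so the 24 h sign of the others was not settled.

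Cyp1a1, the cytochrome P450 that oxidises flat aromatic hydrocarbons, had the most positive change. Its DMSO arrays read 3.83, 4.14 and 4.23 at 6 h and 3.95, 4.39 and 4.09 at 24 h, all near the median probe set level. With PCB126 it read 7.47, 6.82 and 6.62 at 6 h and 9.86, 9.39 and 9.83 at 24 h. Every treated array lay above every control array at both times, and the 24 h treated arrays lay above the 6 h ones. The log2 difference from DMSO went from 2.90 at 6 h to 5.55 at 24 h, a change of 2.64 (SE 0.346, 95% interval 1.91 to 3.38, adjusted p = 0.00596). The shift lay in the treated arrays, which rose by 2.72 between the times, against 0.08 in DMSO. All 10 probe sets of the gene had a change above 0. On the 72 h arrays, which the change did not use, the difference was 6.22.

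Lbp, the serum protein that hands bacterial lipopolysaccharide to its receptor, had the most negative change. Its DMSO arrays read 10.41, 10.28 and 10.17 at 6 h and 10.63, 10.57 and 10.52 at 24 h. With PCB126 it read 9.85, 9.80 and 9.67 at 6 h and 7.90, 8.26 and 8.28 at 24 h. The groups did not overlap at either time, but the gap was much wider at 24 h. From -0.51 (adjusted p = 0.134 for 6 h alone) the difference went to -2.43, a change of -1.92 (SE 0.187, 95% interval -2.31 to -1.52, adjusted p = 3.42e-04). In 17 of its 18 probe sets the change was below 0. At 72 h the difference was -1.66, with DMSO down to between 8.73 and 9.05.

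Adora2a, an adenosine receptor that raises cyclic AMP when its ligand binds, read 10.02, 9.74 and 9.78 in DMSO at 6 h and 8.86, 8.51 and 8.67 with PCB126. The 24 h arrays read 10.25, 10.27 and 10.19 in DMSO and 7.30, 7.74 and 7.43 with PCB126. It was thus already lower on every treated array at 6 h and lower still at 24 h. Its differences of -1.17 and -2.75 gave a change of -1.58 (SE 0.202, 95% interval -2.01 to -1.15, adjusted p = 0.00596), and the 72 h difference was -3.25. Of its 6 probe sets, 5 had a change below 0. Adora2a and Cyp1a1 were the only genes called for the change whose difference was called at 6 h as well as at 24 h.

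Hpd, which encodes 4-hydroxyphenylpyruvate dioxygenase of tyrosine breakdown, showed no separation at 6 h: DMSO read 7.38, 7.61 and 7.38 and PCB126 7.39, 7.46 and 7.01. At 24 h DMSO read 7.81, 7.51 and 7.74 and PCB126 5.98, 5.97 and 6.19, with a gap of more than 1 log2 unit between the groups. The difference went from -0.17 to -1.64, a change of -1.47 (SE 0.198, 95% interval -1.89 to -1.05, adjusted p = 0.00642), and all 12 probe sets had a change below 0. At 72 h the difference was -1.64 again, with both groups at lower levels than at 24 h.

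Mcm5, a subunit of the helicase that opens DNA for replication, was the other gene that gained a rise. Its DMSO arrays read 8.35, 8.62 and 8.58 at 6 h and 8.26, 8.29 and 8.37 at 24 h. With PCB126 it read 8.24, 8.55 and 8.25 at 6 h, inside and below the control range, and 9.07, 9.35 and 9.22 at 24 h, above all controls. The difference went from -0.17 to 0.91, a change of 1.08 (SE 0.173, 95% interval 0.72 to 1.45, adjusted p = 0.0398), and was 0.71 at 72 h. In 20 of its 22 probe sets the change was above 0. This call was the weakest of the 5: with 1 of the 12 arrays left out it was kept only without replicate 1 of DMSO at 6 h, replicate 2 of PCB126 at 6 h or replicate 1 of PCB126 at 24 h, and lost without any of the other 9 (adjusted p up to 0.206). The change stayed between 1.01 and 1.19. With the 12 arrays fitted alone, Hpd (adjusted p = 0.0618) and Mcm5 (0.0987) lost their calls. Mcm5 also lost its call when replicate numbers entered the limma fit as blocks (adjusted p = 0.0509). Cyp1a1, Lbp and Adora2a kept theirs under every alternative run.

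**Figure D1:**
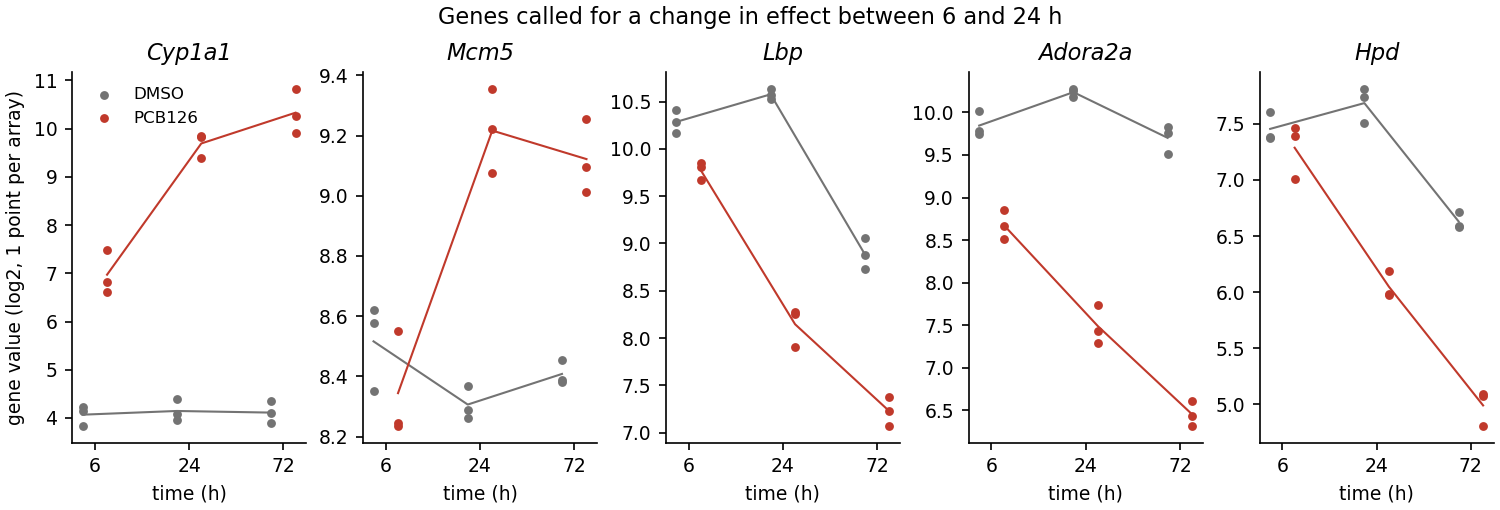
Log2 expression of the 5 genes called for the change in effect, 1 point per array (grey DMSO, red PCB126), with lines through the group means of 3 arrays at 6, 24 and 72 h (evenly spaced, not to scale in time; each panel has its own vertical axis). The treated and control points of Hpd and Mcm5 overlap at 6 h and are apart at 24 h, while those of Cyp1a1, Lbp and Adora2a are apart at both times.

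The AhR battery, the enzymes and regulators best known as AhR targets, was not uniform in its timing. Of its 14 measured members, 1 (Cyp1a1) was called for the change, and the median change over the list was 0.26, beside -0.02 over all genes. At 6 h, 6 members were called higher with PCB126 (0.253% of all genes were), and at 24 h, 7 (1.7% of all genes). The enzymes Aldh3a1 and Nqo1 had differences at 6 h close to those at 24 h. Aldh3a1, which oxidises aldehydes, read 6.92, 6.57 and 6.41 in DMSO and 11.38, 11.08 and 11.33 with PCB126 at 6 h. At 24 h it read 7.08, 6.94 and 6.78 in DMSO and 11.21, 11.40 and 11.48 with PCB126. The difference of 4.63 at 6 h became 4.43, a change of -0.20 with a 95% interval of -0.63 to 0.23. It stood at 5.91 at 72 h. Nqo1, a quinone reductase, had differences of 2.09 and 1.90, and its change of -0.20 had an interval of -0.63 to 0.24. Its level shifted by -0.83 with PCB126 and -0.63 in DMSO between the times.

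The feedback genes differed from each other in value, but neither was called for the change. Tiparp, a mono-ADP-ribosyltransferase that acts on AhR, read 10.37, 10.15 and 10.10 in DMSO and 11.57, 11.50 and 11.36 with PCB126 at 6 h. Its 24 h values were 10.36, 10.44 and 10.42 in DMSO and 11.51, 11.73 and 11.64 with PCB126. Its differences of 1.27 and 1.22 gave a change of -0.05 (interval -0.47 to 0.37). Ahrr, the AhR repressor, had differences of 1.23 and 1.82, a change of 0.59 (interval 0.13 to 1.05, adjusted p = 0.531). Cyp1b1, an oestrogen- and hydrocarbon-oxidising P450, had differences of 1.89 and 2.61, a change of 0.72 (interval 0.07 to 1.38, adjusted p = 0.649; 0.43 with means over probe sets). For Ahrr and Cyp1b1 the intervals reach past 1 log2 unit, so neither a steady effect nor a gained one was shown.

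Among the remaining members, Nfe2l2, which encodes the antioxidant regulator NRF2, was called at 24 h (0.60) and not at 6 h (0.38), with a change of 0.22 (interval -0.10 to 0.53; 0.11 with means over probe sets). The receptor gene Ahr itself had differences of -0.20 and 0.10 and a change of 0.30 (interval -0.10 to 0.69). Cyp1a2, the hepatocyte relative of Cyp1a1, stayed between 4.52 and 5.35 on all 12 arrays and had a change of -0.49 (adjusted p = 0.777), which was -0.06 with means over probe sets and with bright probe sets alone. The glucuronosyltransferase genes Ugt1a6 (2 probe sets, change 0.46) and Ugt1a7c (1 probe set, change -0.31) share sequence with their neighbours in the Ugt1a locus. Probe sets naming several genes were left out, and with so few remaining the values are uncertain. Changes of 0.41 for Gsta2, a glutathione transferase gene, 0.35 for the P450 gene Cyp2s1 and -0.28 for Xdh, which encodes xanthine dehydrogenase, did not pass the test. Over the alternatives the change of Gsta2 ran from 0.13 (without replicate 2 of PCB126 at 24 h) to 0.74 (without replicate 1), and that of Cyp2s1 fell as low as 0.12, without replicate 3 of PCB126 at 6 h. The ranges were 0.25 to 0.69 for Ugt1a6 and -0.53 to -0.15 for Ugt1a7c.

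The promoters of the feedback genes are shown because they hold the AhR core word. The sequences are RefSeq's, build GRCr8, 300-base windows around the gene start on the gene's strand, with GCGTG, or CACGC where the word lies on the other strand, in capitals. Ahrr lies at chr1:30821969-30822268 (plus strand) with 3 matches, and Tiparp at chr2:152063519-152063818 (plus strand) with 1.
Ahrr: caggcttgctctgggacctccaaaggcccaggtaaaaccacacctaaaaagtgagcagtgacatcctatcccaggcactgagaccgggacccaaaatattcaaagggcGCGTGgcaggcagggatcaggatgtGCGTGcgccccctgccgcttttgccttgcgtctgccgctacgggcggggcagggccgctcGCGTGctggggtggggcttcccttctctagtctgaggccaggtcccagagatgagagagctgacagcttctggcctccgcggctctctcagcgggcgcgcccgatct
Tiparp: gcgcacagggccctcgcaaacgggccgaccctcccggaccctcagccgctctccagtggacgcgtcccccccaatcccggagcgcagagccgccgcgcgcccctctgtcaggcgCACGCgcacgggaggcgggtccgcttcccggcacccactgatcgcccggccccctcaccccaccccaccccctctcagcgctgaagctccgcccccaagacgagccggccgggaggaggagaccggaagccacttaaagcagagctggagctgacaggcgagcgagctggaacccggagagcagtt
The word occurred in 7 of the 12 battery promoters in the table (58.3%), in 40.9% of the 13848 promoters of tested genes and in 31.1% of all 27457 promoters. It was not particular to the battery: 59.1% of the promoters of the DNA replication list and 50% of those of the mitosis list, both described below, held it. A match is only these letters in this window. Cyp1a1, Aldh3a1, Lbp and Adora2a had no entry in the promoter table.

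A steady effect was counted only where the data bound the change, since a p that misses the threshold does not show one. By this rule 53 genes were steady: called at 6 h and at 24 h in the same direction, not called for the change, and with the 95% interval of the change inside -1 to 1, that is, within 2-fold either way. Of all genes, 72.6% had such an interval, most of them in genes called at neither time. The 53 comprised 26 genes higher and 27 lower with PCB126. Their absolute differences had medians of 0.785 at 6 h and 0.908 at 24 h, and 33 of the 53 were larger at 24 h. On the 72 h arrays, which entered this choice only through the shared spread, 50 of the 53 were called in the same direction (3.3% of all genes were called higher there and 4.14% lower), with a median of 1.15. The exceptions were Dmxl2, Faah and Zbtb20.

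Outside the battery, the steady genes with the largest differences were all higher with PCB126. Gfra1, the GDNF co-receptor, read 6.93, 6.95 and 7.10 in DMSO and 8.72, 8.63 and 8.68 with PCB126 at 6 h. The 24 h readings were 6.69, 6.75 and 6.61 in DMSO and 7.85, 8.41 and 8.08 with PCB126. Levels were lower at 24 h in both groups and the difference was kept, at 1.68 and then 1.43, a change of -0.25 (interval -0.64 to 0.13). Fst encodes follistatin, which binds and blocks activin. Its differences of 1.23 and 1.52 gave a change of 0.28 (interval -0.09 to 0.66). The secreted glycoprotein gene Scube3 had differences of 1.35 and 1.17 and a change of -0.18 (interval -0.53 to 0.17).

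Steady here means within 2-fold, not equal. Susd4, a membrane inhibitor of complement, had differences of 1.42 and 1.91, and the interval of its change of 0.49 ran from 0.17 to 0.80. Kif26a, a kinesin-like gene, had differences of 1.04 and 1.54, with an interval of 0.10 to 0.91 around a change of 0.50. Both intervals lie above 0 and below 1, although neither change passed the test over all genes (adjusted p = 0.333 and 0.558). On the lower side Dclk1 had differences of -0.79 and -1.39. Its change of -0.60 had an interval of -0.97 to -0.23 (adjusted p = 0.300). The intervals of Glb1l2 (-0.86 to -0.06) and Exph5 (-0.98 to -0.002) also lay below 0. The lower steady genes named here were chosen for mention after their values were seen. Others were the growth factor receptor Met (-0.76 and -1.08) and the tight junction gene Cgn, which encodes cingulin (-0.78 and -1.10). The duct keratin Krt19 (-1.01 and -0.95) and Podxl, which encodes the sialomucin podocalyxin (-0.96 and -0.71), were also among them. Higher ones included the cyclooxygenase Ptgs2 (1.03 and 1.35), the cyclin Ccnd2 (0.81 and 0.89) and the endodermal transcription factor Sox17 (0.99 and 1.44).

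**Figure D2:**
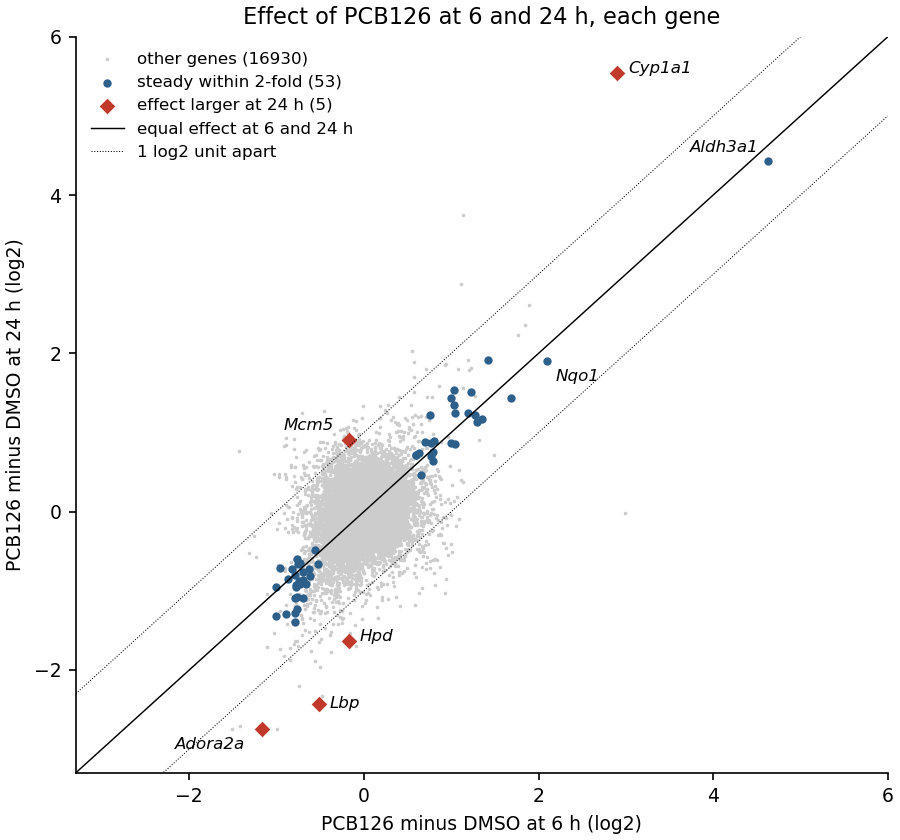
Log2 difference between PCB126 and DMSO at 24 h (vertical) against that at 6 h (horizontal), 1 point per gene, with the line of equal effect and dotted lines 1 log2 unit apart from it. The 53 steady genes (blue) lie near the line, from Aldh3a1 at 4.63 and 4.43 downwards. The 5 called genes (red) lie away from it, each with the larger difference at 24 h.

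Taking all genes called at both times, 76 genes passed, and all 76 had the same direction at 6 and 24 h, which share no arrays. In 56 of the 76 the difference was larger at 24 h. Besides the 53 steady genes and the 2 called for the change, 21 had an interval that reached past 1 log2 unit, so their timing was not settled. All 21 had the larger difference at 24 h, 10 of them higher and 11 lower with PCB126. Igfbp5, which binds insulin-like growth factors, came nearest to a call. It read 9.56, 9.28 and 9.12 in DMSO and 8.11, 7.75 and 7.55 with PCB126 at 6 h. Values at 24 h were 9.89, 9.88 and 9.80 in DMSO and 7.17, 6.96 and 7.22 with PCB126. The difference widened from -1.52 to -2.74, a change of -1.22 (SE 0.213, adjusted p = 0.0755, called under 8 of 22 alternatives), with shifts between the times of 0.54 in DMSO and -0.69 with PCB126. Others were the metalloprotease Adamts9 (-0.80 and -1.67), the interleukin 4 receptor Il4ra (current symbol Il4r, -0.67 and -1.49) and the adhesion receptor Gpr56 (current symbol Adgrg1, -0.91 and -1.82). On the higher side were Cpox, an enzyme of haem synthesis (1.08 and 1.80), the mitochondrial creatine kinase Ckmt1 (1.19 and 1.92) and Foxq1, a forkhead factor measured by 1 probe set (1.84 and 2.36).

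Calls at 1 time alone were uneven: 8 genes were called at 6 h and not at 24 h, and 747 at 24 h and not at 6 h. In all, 84 genes were called at 6 h (0.494%) and 823 at 24 h (4.84%). The 6 h count was 32 to 44 when 1 of the 6 arrays of that time was dropped, and 32 without replicate 1 of DMSO. The 24 h count was 449 and 536 without replicates 1 and 3 of DMSO at 24 h and 495 without replicate 1 of PCB126 at 24 h, and with means over probe sets the counts were 178 and 1256. A call at 1 time does not show a change, and only 3 of the 747 (Mcm5, Lbp and Hpd) were called for it. For 405 of the 747 the interval of the change lay inside -1 to 1, a smaller share than the 72.6% of all genes. The 747 were chosen on the same 6 h and 24 h differences that form the change. A smaller share can follow from that choice alone, so no conclusion is drawn from it. Between DMSO at 24 h and at 6 h, 0 genes were called by limma and 987 (5.81%) had an unadjusted p under 0.05. That count does not show that DMSO cultures stayed level: Igf1, for one, shifted by 1.30 in DMSO. Between PCB126 at 24 h and at 6 h, 106 genes were called (0.624%).

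None of the 8 genes called at 6 h alone was called for the change. Hsd11b1, which encodes the enzyme that regenerates active glucocorticoid, came closest. It read 3.60, 3.06 and 3.53 in DMSO and 4.47, 4.48 and 4.21 with PCB126 at 6 h. By 24 h it read 3.87, 3.69 and 3.79 in DMSO and 3.91, 3.68 and 3.61 with PCB126. The groups were apart at 6 h and overlapped at 24 h, at levels close to the median probe set level. The difference went from 0.99 to -0.05, a change of -1.04 (SE 0.219, 95% interval -1.50 to -0.57, adjusted p = 0.131), and was 0.52 at 72 h. With array quality weights it was called (-1.18, adjusted p = 0.0237). Nxph4, a neurexophilin gene, went from 1.06 to 0.19 (adjusted p of the change 0.345), and Fam110c, measured by 3 probe sets, from 0.68 to 0.06 (adjusted p = 0.416). Il1r2, the decoy receptor for interleukin 1, went from 1.49 to 0.72 and was 1.12 at 72 h. Nptx1, Ptdss1, Alpk3 and Zfpm2 kept the sign of their 6 h difference at 24 h, with changes of -0.39, -0.29, 0.32 and 0.33.

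**Figure D3:**
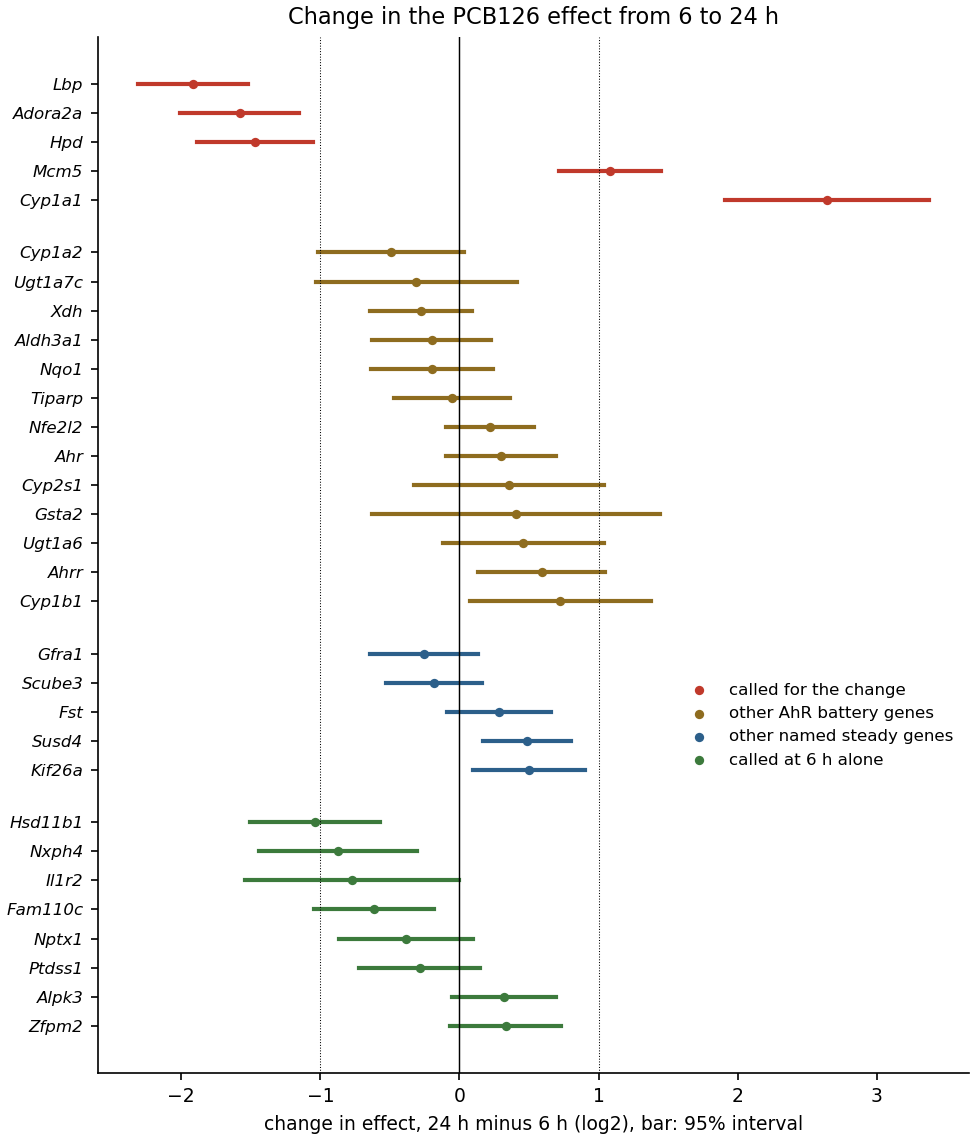
Change in the effect of PCB126 from 6 to 24 h (log2) with its 95% interval for the 5 called genes, the other AhR battery members, the other named steady genes and the 8 genes called at 6 h alone, with dotted lines at -1 and 1. The intervals of the 5 called genes lie away from 0, those of Aldh3a1, Nqo1 and Tiparp lie around 0 inside the dotted lines, and that of Hsd11b1 crosses -1.

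The most positive median changes among the 29 gene lists were those of the cell cycle lists. DNA is copied in S phase by the MCM helicase, its loaders and polymerases, whose genes are classical targets of E2F factors, and chromosomes are then separated in mitosis by kinases, cyclins and spindle proteins. Of 26 measured DNA replication genes 25 had a change above 0, beside 7945 of all 16988 genes. Their median change was 0.74 (all genes -0.02), 1 was called (Mcm5), and 19 had an unadjusted p under 0.05 with a change above 0, beside 3.44% of all genes. Of 27 measured mitosis genes all 27 had a change above 0, with a median of 0.88. None of these was called by limma over all genes, while 24 had an unadjusted p under 0.05. Genes within these lists move together, so the counts are not independent observations. In these bulk samples, more cells in cycle and more RNA per cell cannot be told apart.

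The direction at each time can be read from the arrays. The median level over the DNA replication genes was 7.93, 8.08 and 7.89 on the DMSO arrays and 7.69, 8.12 and 7.95 on the PCB126 arrays at 6 h, which overlap. At 24 h it was 7.77, 7.89 and 7.83 with DMSO and 8.32, 8.37 and 8.36 with PCB126, which do not. Gene by gene, all 3 treated arrays lay above all 3 controls at 24 h in 21 of 26 replication genes (80.8%) and in 22 of 27 mitosis genes (81.5%), beside 9.11% of all genes. At 6 h this held for 0 genes of either list (7.05% of all genes). The median difference of the replication genes was -0.17 at 6 h, 0.58 at 24 h and 0.58 at 72 h. At 24 h alone, 10 replication and 14 mitosis genes were called higher (1.7% of all genes were), and at 6 h 0 in either direction (0.253% of all genes were called higher and 0.241% lower).

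The change can be split into the shift between 6 and 24 h in each treatment, with no test between the lists. The median shift of the replication genes was 0.56 with PCB126 and -0.14 in DMSO. For mitosis genes it was 0.42 with PCB126 and -0.43 in DMSO. The median level of the mitosis genes was 8.46, 8.94 and 8.73 in DMSO at 6 h and 8.15, 8.53 and 8.21 at 24 h, and with PCB126 it went from 8.21, 8.68 and 8.52 to 8.76, 8.79 and 8.99. The DMSO arrays of the 2 times overlap, and the PCB126 arrays do not. The median difference was -0.18 at 6 h, 0.66 at 24 h and 0.80 at 72 h.

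Among the replication genes, the other MCM helicase subunits ranged from a change of 0.54 for Mcm2 to 0.94 for Mcm3 (adjusted p = 0.104). The change of Mcm3 was called with means over probe sets, quantile normalisation, the intensity trend and array quality weights. Mcm3 read 8.32, 8.57 and 8.56 in DMSO and 8.16, 8.34 and 8.15 with PCB126 at 6 h, and 8.08, 8.36 and 8.06 against 8.72, 8.85 and 8.94 at 24 h. The helicase partner Cdc45l (current symbol Cdc45) had a change of 1.14, the GINS subunit Gins1 1.28, and Rrm2, the regulated subunit of ribonucleotide reductase, 1.16. Rrm1, its partner subunit, had 0.05. The exception to the direction was RGD1311055 (current symbol Gins2), at -0.40. It depended on the probe set summary: with means over probe sets, and with bright probe sets alone, all 26 replication genes had a change above 0. Among mitosis genes, Anln, which encodes the cytokinesis protein anillin, had the lowest p, with a change of 1.13 (SE 0.239, adjusted p = 0.131). The proliferation marker Mki67 had a change of 1.27, the kinase Plk1 1.04, and the cyclins Ccna2 and Ccnb2 1.10 and 0.98. The smallest in the list was that of Ube2c, a ubiquitin-conjugating enzyme of the anaphase complex, at 0.36. With array quality weights, 7 replication genes and 10 mitosis genes were called higher for the change, beside 0.347% of all genes.

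Promoters of 3 of these genes are shown because replication and mitosis genes carry different words near their starts, as known from mammalian cell cycle genes. The words searched, on both strands, were the E2F forms TTTCCCGC, TTTCGCGC, TTTGGCGC and TTTGCCGC, and TTTGAA, the core of the cell cycle homology region (CHR). The matched letters are in capitals, and the sequences are RefSeq's, build GRCr8, on the gene's strand. Mcm5 lies at chr19:13488563-13488862 (plus strand) with 3 E2F matches, 2 of which overlap, and Mcm3 at chr9:30733697-30733996 (minus strand) with 2. Plk1 lies at chr1:186147408-186147707 (plus strand) with 1 CHR match.
Mcm5: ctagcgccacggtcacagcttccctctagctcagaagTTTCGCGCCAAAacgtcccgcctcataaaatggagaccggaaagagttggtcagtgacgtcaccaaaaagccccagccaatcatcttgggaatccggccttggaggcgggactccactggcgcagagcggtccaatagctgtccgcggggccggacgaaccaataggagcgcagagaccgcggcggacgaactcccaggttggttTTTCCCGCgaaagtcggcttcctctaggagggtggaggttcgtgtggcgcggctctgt
Mcm3: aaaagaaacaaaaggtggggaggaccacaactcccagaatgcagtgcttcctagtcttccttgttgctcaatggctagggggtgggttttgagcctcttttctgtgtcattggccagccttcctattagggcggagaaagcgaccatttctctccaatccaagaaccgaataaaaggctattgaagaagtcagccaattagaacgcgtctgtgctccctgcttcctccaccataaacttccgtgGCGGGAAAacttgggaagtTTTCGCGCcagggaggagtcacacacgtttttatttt
Plk1: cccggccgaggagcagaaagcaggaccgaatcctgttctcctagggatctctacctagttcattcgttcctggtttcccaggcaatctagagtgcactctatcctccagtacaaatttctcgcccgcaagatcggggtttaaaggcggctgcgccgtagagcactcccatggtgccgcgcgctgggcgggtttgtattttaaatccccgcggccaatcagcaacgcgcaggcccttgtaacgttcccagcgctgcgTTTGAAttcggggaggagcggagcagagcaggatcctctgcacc
An E2F word was present in 12 of the 22 replication promoters in the table (54.5%), beside 3.2% of the promoters of tested genes and 2.25% of all promoters. TTTGAA was present in 16 of 22 mitosis promoters (72.7%), beside 15.2% and 18.1%. Whether genes with and without the word differ in change was not tested. Replication genes with an E2F word had a median change of 0.66 and the 10 without one 0.72. Mitosis genes with TTTGAA had a median of 0.92 (16 genes) and those without 0.73 (6 genes). A match is a description of the letters, not a site shown to be bound here.

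**Figure D4:**
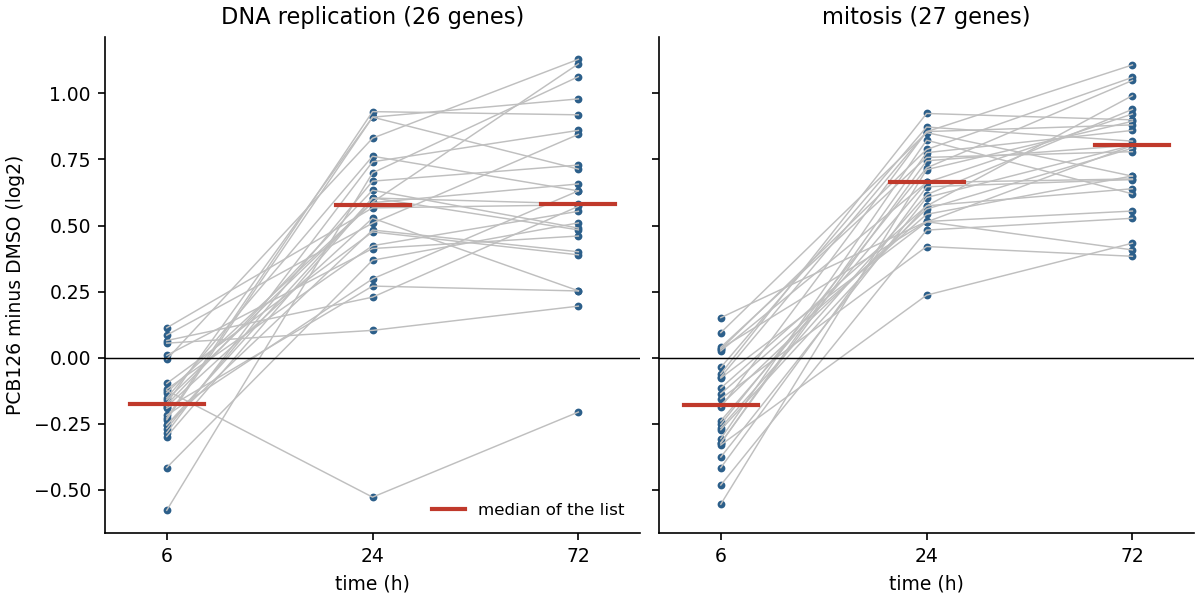
Log2 difference between PCB126 and DMSO at 6, 24 and 72 h (evenly spaced) for each measured gene of the DNA replication list (26 genes) and the mitosis list (27 genes), with grey lines joining a gene's values and red bars at the list medians. Medians go from -0.17 and -0.18 at 6 h to 0.58 and 0.66 at 24 h. In these values 1 replication gene, RGD1311055, goes the other way, which it did not with means over probe sets.

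Cell cycle entry genes were mixed. Of 17 G1 cyclins, kinases and inhibitors, 0 were called for the change, 3 had an unadjusted p under 0.05 with a change above 0 and 1 below (3.44% and 3.53% of all genes), and the median change was 0.26. That median was 0.06 without replicate 2 of PCB126 at 24 h, 0.10 without replicate 1 of DMSO at 24 h and 0.08 with bright probe sets alone, and ran up to 0.31. E2f1, the transcription factor that drives S phase genes, read 7.50, 7.43 and 7.44 in DMSO and 6.95, 7.21 and 6.90 with PCB126 at 6 h. The later arrays read 7.27, 7.30 and 7.34 in DMSO and 7.83, 7.62 and 7.77 with PCB126. It was thus lower on all treated arrays at 6 h and higher on all of them at 24 h. The difference went from -0.44 (adjusted p = 0.110) to 0.44 (adjusted p = 0.0264), a change of 0.87 (SE 0.153, adjusted p = 0.0755), and was -0.06 at 72 h. The change was 0.54 with means over probe sets, and it was called under 5 of 22 alternatives (bright genes alone, centring, the intensity trend, array quality weights, and without replicate 2 of PCB126 at 6 h). The kinase inhibitor Cdkn1a, also a p53 target, had differences of 0.27 and 0.68 and a change of 0.41 (adjusted p = 0.676). The D cyclin Ccnd3, measured by 1 probe set, had a change of -0.58.

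Lists of growth factor and inflammatory genes had the most negative median changes. In the insulin-like growth factor axis, hormones that signal through Igf1r and are held by binding proteins, 0 of 14 measured genes were called for the change. Of these, 7 had an unadjusted p under 0.05 with a change below 0 (3.53% of all genes did), and the median change was -0.31. Those 7 were the hormone Igf1 and the binding proteins Igfbp1, Igfbp2, Igfbp4, Igfbp5, Igfbp6 and Igfbp7. Igf1 read 6.67, 6.01 and 6.07 in DMSO and 5.50, 4.81 and 5.45 with PCB126 at 6 h. By 24 h the readings were 7.64, 7.54 and 7.46 in DMSO and 4.55, 5.23 and 4.63 with PCB126. On all treated arrays it lay below the controls at both times, as did 5 of the 14 genes at 6 h (35.7%, beside 9.87% of all genes) and 8 at 24 h (57.1%, beside 12.7%). The difference of Igf1 reached -2.74 at 24 h, a change of -1.74 (SE 0.345, adjusted p = 0.104), and most of that came from DMSO, which shifted by 1.30 while PCB126 shifted by -0.45. The receptors Igf1r and Insr had changes of 0.06 and 0.34. The list median moved to -0.06 when dim genes were left out and to -0.15 with means over probe sets. It was -0.18 with bright probe sets alone and -0.20 without replicate 1 of PCB126 at 6 h. Calls moved the other way in some settings. With means over probe sets 3 of the 14 were called lower (Igf1, Igfbp4 and Igfbp5), beside 15 of all 16988 genes. Array quality weights called Igf1 and Igfbp5, beside 26 of all genes called lower.

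Of 22 inflammation and chemokine genes, 1 was called (Lbp, lower), and the median change was -0.32 (-0.16 with means over probe sets). An unadjusted p under 0.05 was reached by 7 with a change below 0 and 0 above (3.53% and 3.44% of all genes). Vcam1, a leukocyte adhesion molecule, went from -0.62 to -1.52, the lipopolysaccharide co-receptor Cd14 from 0.01 to -0.63 and the membrane chemokine Cx3cl1 from -0.20 to -0.84. The chemokines Cxcl12 and Cxcl1 had changes of -0.68 and -0.46, and complement C3 -0.54, none of them called. Levels in DMSO moved as well: the list's median shift between 6 and 24 h was 0.16 in DMSO and -0.03 with PCB126. Ptgs2, in the same list, was steady.

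Of 16 fatty acid oxidation and PPAR target genes, 0 were called for the change, and the median change was -0.24 (-0.13 without replicate 1 of PCB126 at 24 h). An unadjusted p under 0.05 with a change below 0 was reached by 3 (3.53% of all genes did). At 24 h alone 6 were called lower and 0 higher (3.14% of all genes were called lower). They included Cpt1a, the gate of fatty acids into mitochondria (-0.28 at 6 h and -0.76 at 24 h), and Pdk4, which shuts glucose carbon out of the citric acid cycle (-0.35 and -0.78). Angptl4, a lipase inhibitor, had the lowest p of the list for the change, at -1.04 (adjusted p = 0.300, -0.57 with means over probe sets), and its levels lay between 3.67 and 5.01, near the median probe set level. Of 19 cell junction genes, 0 were called for the change and 4 had an unadjusted p under 0.05 below 0, beside the same 3.53% of all genes. Their median change of -0.17 ran from -0.29 (without replicate 1 of DMSO at 6 h) to -0.04 (means over probe sets). The junctional adhesion molecule F11r went from -0.03 to -0.54 and the cadherin Cdh3 from -0.48 to -0.97.

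Of 28 extracellular matrix genes, 14 had a change above 0 and 14 below, and 0 were called by limma. At an unadjusted p under 0.05 there were 2 above 0 and 3 below (3.44% and 3.53% of all genes). Nid1, the basement membrane linker nidogen, had a change of 0.84 (adjusted p = 0.228). It stayed level with PCB126 (shift 0.02) while DMSO shifted by -0.82 between the times. Postn, which encodes periostin, had a change of -1.16. Among 10 small leucine-rich proteoglycans 0 were called (2 below 0 at an unadjusted p under 0.05), and Ogn, which encodes osteoglycin, read 7.67, 7.00 and 6.64 in DMSO and 6.85, 6.61 and 6.39 with PCB126 at 6 h. At 24 h it read 7.34, 6.89 and 7.25 against 4.60, 4.92 and 4.98, apart where the 6 h groups overlapped. Its difference went from -0.49 to -2.33, a change of -1.84 (SE 0.340, adjusted p = 0.0865), called under 6 of 22 alternatives. Of 18 matrix proteases and inhibitors 0 were called (2 below 0 at an unadjusted p under 0.05). Adamts9 had the lowest p with a change of -0.88 (adjusted p = 0.104, called under 2 of 22 alternatives).

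The remaining lists had median changes between -0.18 and 0.16, and 0 of their members were called for the change by limma. Per list, 0 to 3 members had an unadjusted p under 0.05 in either direction (6.98% of all genes did). At the lower end were retinoid metabolism and signalling (17 genes, -0.18) and the circadian clock (16 genes, -0.13), at the upper end fatty acid synthesis (12 genes, 0.16) and sterol synthesis (15 genes, 0.12). These medians were not stable: over the alternatives they ran from -0.39 (without replicate 2 of DMSO at 24 h) to -0.09 for the retinoid list and from -0.20 to -0.07 for the clock list. The range was 0.08 (without replicate 2 of DMSO at 6 h) to 0.21 for fatty acid synthesis and 0.05 to 0.20 for sterol synthesis. In the retinoid list Aldh1a3, which makes retinoic acid, went from -0.32 to -1.03 (change -0.72, adjusted p = 0.276). In the clock list Per3 went from 0.03 to 0.70 (change 0.67, adjusted p = 0.275). NRF2 antioxidant genes (18 genes, median -0.07) held Akr1b8, an aldo-keto reductase, which went from 0.02 to -0.87 (change -0.89, adjusted p = 0.271). The value was -0.68 without replicate 1 of PCB126 at 24 h. Interferon and antigen processing genes (20 genes, median 0.00, from -0.17 to 0.11 over the alternatives) held Mx2, an interferon-induced GTPase, at -0.49 and -1.61 (change -1.12, adjusted p = 0.503).

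Lowest-p members of other lists, none called for the change, were Klf2 of the immediate early genes (0.37), Bmp6 of the BMP genes (-0.44), Ltbp2 of the TGF-beta genes (0.65) and Nt5e of the YAP targets (-0.39). They also included Stard4 of sterol synthesis (0.42), Fads1 of fatty acid synthesis (0.36), Pgk1 of glycolysis (0.36), Dnajb9 of the ER stress genes (-0.72) and Tcf7 of the Wnt genes (0.52, and 0.14 with means over probe sets). The cell type marker lists had lowest-p members G6pc (current symbol G6pc1, -0.81), Aqp1 (-0.71), Thy1 (0.97) and Cd68 (0.86), and 0 members called. List medians were -0.07 for hepatocyte, -0.15 for cholangiocyte and progenitor, -0.13 for mesenchymal and 0.09 for blood and endothelial markers. With means over probe sets G6pc was at -0.23, Thy1 at 0.38 and Cd68 at 0.25, and with bright probe sets alone Cd68 was at 0.04, beside 0.55 without replicate 3 of PCB126 at 6 h. The hepatocyte median was -0.22 without replicate 3 of PCB126 at 24 h and -0.42 among bright genes, and over the alternatives it reached 0.03 on the other side. The median of the blood and endothelial markers was -0.19 with bright probe sets alone. Of these 4 genes Aqp1 alone lay well above the median probe set level, at 10.3 to 11.67. The part of shifts in cell types in the results above was not tested.

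**Figure D5:**
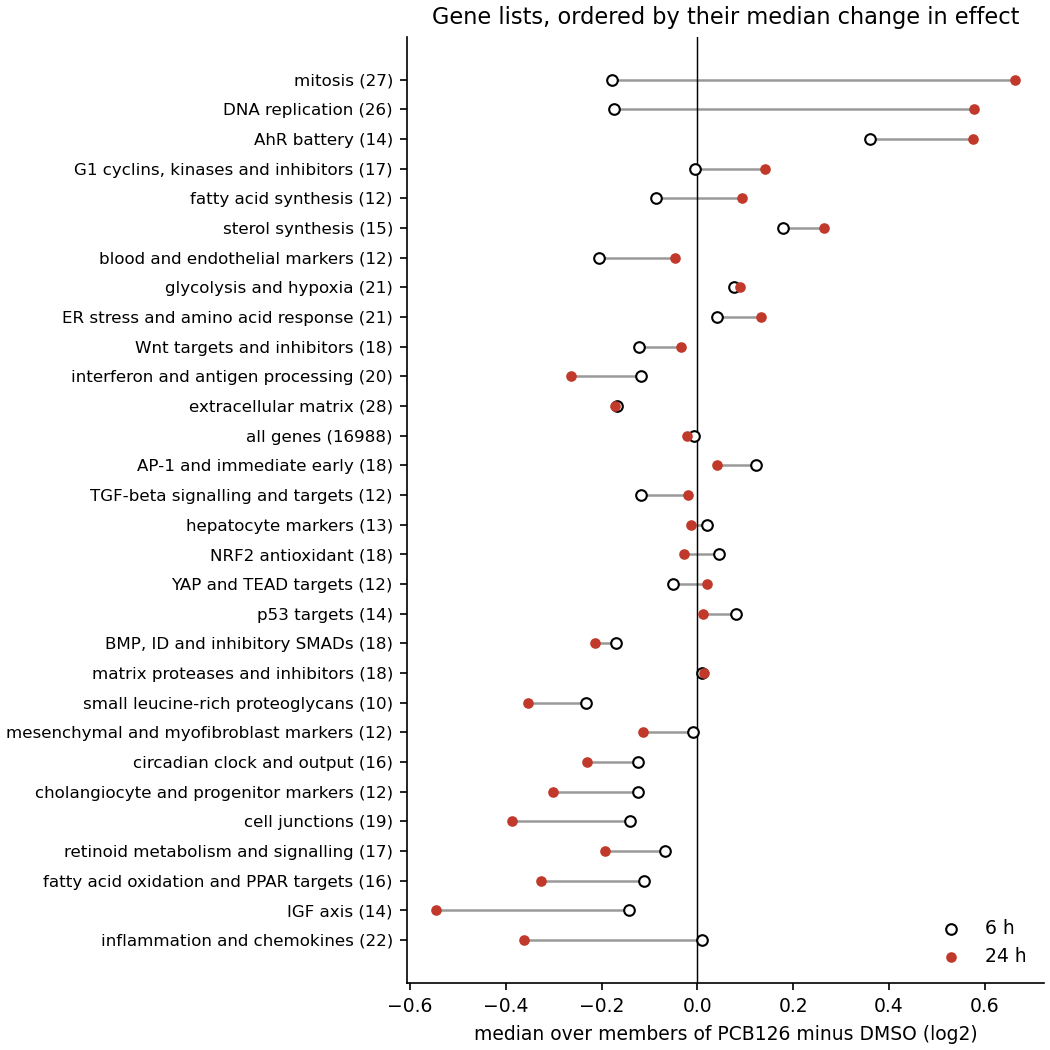
Median over the members of each gene list, and over all genes, of the log2 difference between PCB126 and DMSO at 6 h (open) and 24 h (filled), ordered by the median change in effect, with the number of measured genes in brackets. Mitosis and DNA replication cross from below 0 to 0.66 and 0.58, the AhR battery is above 0 at both times, and the IGF axis has the lowest 24 h median.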

How the data were processed

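Expression was measured on an Affymetrix rat exon array, 1 array per sample. The deposited data are log2 values per probe set, which the submitters' processing notes say the authors made with RMA and Affymetrix Power Tools 1.12.0. The RMA version and array build are not given in the sources used here. Of 1044112 probe sets, 223110 name a single gene, 3523 several and 817479 no gene. Gene values were the median over the probe sets of that symbol alone (16988 genes, median 10 probe sets, 657 genes of 1). Of the symbols, 12943 are current, 3982 older and 63 had no single match.

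A limma 3.58.1 fit (R 4.3.3, the package data.table at version 1.17.8) with 1 mean per group used all 18 arrays, without an intensity trend, with 12 residual and 3.89 prior degrees of freedom. P-values were adjusted by Benjamini-Hochberg over all genes of a comparison. The tests were checked on simulated data. No 2 arrays were identical. Replicate numbers were not treated as pairs. Of 524 members of 29 gene lists, 486 were measured.

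Named were all genes called for the change, the 8 steady genes with the largest mean difference, the AhR battery, and per other list its called members or else that with the lowest p. Other genes named were chosen after their values were seen. The members, lists and tests were chosen with earlier results of these data known. Alternatives covered the replicate block, probe set summary, dim probe sets and genes, genes with at least 4 probe sets, scaling, variance model, arrays in the fit and leaving out each of 12 arrays.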

Additional observations from a re-analysis of the deposited data

Results flagged for a closer look

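The effect of PCB126 differed between 6 and 24 h for 5 genes by the test of that difference itself, limma's interaction contrast with Benjamini-Hochberg adjustment over all genes. The change was 2.64 for Cyp1a1, 1.08 for Mcm5, -1.92 for Lbp, -1.58 for Adora2a and -1.47 for Hpd on the log2 scale. No explanation was tested for any of them.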

How the results depend on the processing

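The count of 5 called genes was 3 with the 12 arrays fitted alone, 13 among bright genes alone, 14 with arrays centred on the median of the genes, 17 with quantile normalisation, 19 with an intensity trend, 25 with means over probe sets and 85 with array quality weights (59 higher, 26 lower). Of these, in the same order, 3, 11, 13, 16, 17, 25 and 79 had the larger effect at 24 h. Called genes whose difference was the smaller one at 24 h, 0 in the report, numbered 2 among bright genes, 1 with centring, 1 with quantile normalisation, 2 with the intensity trend and 4 with array weights, which also gave 2 genes called at both times with opposite signs. All of these had estimated differences of opposite sign at 6 and 24 h. The sign at 24 h was not settled for each of them. With array weights Hsd11b1 had 1.07 at 6 h and -0.11 at 24 h (limma, adjusted p = 0.774 at 24 h). RGD1560648 had -0.94 and 0.46 (adjusted p = 0.194 at 24 h). Whether such an effect turned or was lost by 24 h cannot be told from these values. E2f1 and Gnb5 made up those among bright genes and with the trend, and Gnb5 those with centring and with quantile normalisation. The 53 steady genes became 83 with the intensity trend, 105 with array weights and 137 with means over probe sets. Leaving out 1 array gave 4 to 8 called genes, 4 to 8 larger and 0 to 1 smaller differences (E2f1, without replicate 2 of PCB126 at 6 h) at 24 h and 19 to 43 steady genes. The lowest steady count came without replicate 1 of DMSO or of PCB126 at 6 h (19 each), and 8 called genes came without replicate 1 of DMSO or replicate 2 of PCB126 at 6 h. The cause of these moves was not tested. Deviations from the group means gave r from 0.047 to 0.17 in the 6 pairs of DMSO and PCB126 arrays with the same time and number, all above 0 but 2 above 0.1, and -0.11 to 0.17 over all 18 pairs of 1 number. The median r was 0.04 for the same number and -0.02 for different numbers, and 9 of 12 arrays were closest to their own number. Deviations within a group sum to 0, so the value for different numbers largely follows from that for the same number and adds no separate support. The values for the same number are a hint of pairing from the data, which the labels do not state. With the replicate block 5 genes were called, Phyhd1 in place of Mcm5 (adjusted p = 0.0509), and 50 were steady. Cyp1a1, Lbp and Adora2a kept their calls under all alternatives, Hpd under all but the 12 arrays alone. Among named steady genes, Kif26a lost its place without replicate 3 of DMSO or replicate 1 of PCB126 at 6 h. Of 638 list medians recomputed, 625 moved by less than their spread, and 0 results changed sign past a call. The median change of all genes, -0.02 in the report, lay between -0.04 (without replicate 3 of PCB126 at 24 h) and 0.00 over the alternatives. With 3 arrays per group, the smallest change called over all genes was 1.08.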

Other observations

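Several genes outside the lists lay just short of a call, and they were chosen for mention here after their values were seen. Uhrf1, which keeps DNA methylation through replication, went from -0.22 at 6 h to 0.87 at 24 h (change 1.09, adjusted p = 0.0755). Mybl2, a transcription factor of the late cell cycle, went from -0.11 to 1.06 (change 1.17, adjusted p = 0.0865), and Mastl, a kinase of mitotic entry, from -0.21 to 0.77 (change 0.98, adjusted p = 0.104). On the other side, RGD1309452 (current symbol Nipal4) went from -0.09 to -1.70 (change -1.60, adjusted p = 0.0755). The tetraspanin Tspan8 went from -0.28 to -1.07 (change -0.80, adjusted p = 0.0879) and Phyhd1 from -0.01 to -1.01 (adjusted p of the change 0.104). All of these genes were called for the change with array quality weights, which called 85 genes, and none with the 12 arrays fitted alone. Means over probe sets also called Mybl2 and RGD1309452.

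Gnb5, a G protein beta subunit, had differences of opposite sign. It read 7.67, 7.52 and 7.67 in DMSO and 8.10, 8.02 and 8.20 with PCB126 at 6 h. At 24 h it read 8.13, 8.01 and 8.16 in DMSO and 7.66, 7.71 and 7.76 with PCB126. The groups did not overlap at either time. The difference went from 0.49 (adjusted p = 0.081) to -0.39 (adjusted p = 0.0643), a change of -0.88 (SE 0.161, adjusted p = 0.0865), and was -0.20 at 72 h. Its change was called among bright genes alone, with centring, with quantile normalisation, with the intensity trend and with array quality weights.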
